A study of Mus musculus with 10 samples.

Results

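Heat shock proteins and DNAJ proteins are large families of molecular chaperones and their helpers, and their transcripts were compared here in testis germ cells, WT against GRTH-KI. The genes were chosen by symbol, taking every gene of the table whose symbol begins with Hspa, Hspb, Hspd, Hspe, Hsph, Hsp90, Dnaja, Dnajb or Dnajc and leaving out Hspb11, Hspbap1 and Hspbp1, which share the prefix only. This gave 68 of the 15507 genes listed, 24 heat shock genes and 44 DNAJ genes. RNA-seq was performed on germ cells from testes of 5 WT and 5 homozygous KI mice, aged 45 days, with 1 poly(A) library per mouse. The KI mice carry the human gene of GRTH (DDX25), a testis RNA helicase, with the R242H mutation, and WT mice carry the mouse gene. Neither group received a treatment. Reads were counted on mouse genes, and whether reads of the human transcript are among those on mouse Ddx25 was not tested. Testis is the labelled tissue and germ cells the labelled cell type, so each preparation holds spermatogonia, spermatocytes and spermatids together.

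HSP70 proteins bind unfolded stretches of other proteins in a cycle driven by ATP. J-domain (DNAJ) proteins bring them their substrates and trigger ATP hydrolysis, HSP110 proteins release the nucleotide, HSP90 takes over late folding steps, small heat shock proteins hold aggregating proteins, and the chaperonin of Hspd1 and Hspe1 folds proteins in mitochondria. Male germ cells are known for chaperones of their own, among them Hspa2 in spermatocytes and Hspa1l in spermatids, and round spermatids later replace their histones with transition proteins and protamines.

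Values are normalized counts, the reads of a gene divided by the size factor of its library. The libraries held 12722086 to 16422347 reads on genes. Ddx25, the targeted gene, was at 7615, 7782, 5198, 11101 and 9458 normalized counts in WT libraries 1 to 5 and at 146, 194, 161, 2.88 and 1.84 in KI libraries 1 to 5. No KI library came near WT, and KI libraries 4 and 5 held 3 and 2 reads on the gene. The fitted log2 fold change was −7.84 (SE 1.03, limma adjusted p = 5.63e-05), −5.34 in libraries 1 to 3 and −11.59 in libraries 4 and 5, and the limma interaction adjusted p for that difference was 1.12e-10. On a second principal component, which held 9.75% of the variance, libraries 1 to 3 of both genotypes (n = 6, scores 2.82 to 9.51) stood apart from libraries 4 and 5 (n = 4, scores −11.7 to −6.44). The labels do not name such a split, and changes are therefore also given within each of these sets.

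Of the 68 chaperone genes, all of which passed the filter on low counts, 9 were called lower in KI (limma adjusted p under 0.05 and a fold change of at least 1.5), where 8.22% of the 15389 genes tested were called lower. These were Hspa1l, Dnaja4, Dnajb3, Dnajb4, Dnajb7, Dnajb8, Dnajb9, Dnajb14 and Dnajc5b. Hspb8 and Dnajc6 were the 2 called higher, where 6.13% of all genes were. By adjusted p alone 18 fell, against 13.3% of all genes, and 2 rose, against 9.65%. This balance turned with scaling on library totals, which also moved all genes upward. There 7 of the 18 no longer passed adjusted p and 13 members newly passed it, all of them higher in KI. The KI libraries lay wholly below the WT libraries in 18 members and wholly above in 2, where 10.9% and 6.80% of all genes did so. The 9 calls are 13.2% of the members, and 6 of them stand among the 13 class B DNAJ genes. Some members, Hspa1l and Dnajb3 among them, stand in lists that the study drew from these samples, so that their direction is not independent evidence.

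The median log2 fold change of the members was −0.19 and that of all genes tested 0.03. The direction of this median depended on the scaling: with library totals it was 0.04, and with scaling on spermatocyte markers −0.01. Library totals shifted the all-gene median by 0.23, which put it at 0.25, and spermatocyte markers shifted it by 0.18, which put it at 0.21. Measured from that all-gene median, the members stood at −0.22 with the authors' scaling, −0.21 with library totals and −0.21 with spermatocyte markers, a difference that scaling leaves nearly fixed by its construction. In libraries 1 to 3 alone the members stood at −0.22 from the all-gene median and in libraries 4 and 5 alone at −0.10. Among all genes called, 42.7% were higher in KI with the authors' scaling, 55.8% with upper quartile scaling, 66.4% with spermatocyte markers and 73.1% with library totals. With library totals 7 members were called lower, without Dnajb3 and Dnajb14, and 4 higher, with Hspa1b and Hspb1 added, where 5.13% and 13.9% of all genes were called lower and higher under that scaling. Those that no longer passed adjusted p with library totals were Hspa8, Hspa1a, Hspa13, Hspb7, Dnajb6, Dnajb13 and Dnajc21, and with spermatocyte markers Hspa4l as well. With upper quartile scaling Hspa1a, Hspa13, Dnajb13 and Dnajc21 no longer passed. Reads on the 68 genes together made up 1.61% ± 0.0338 (SD, n = 5) of all reads on genes in WT and 1.53% ± 0.0396 (SD, n = 5) in KI.

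**Figure D1:**
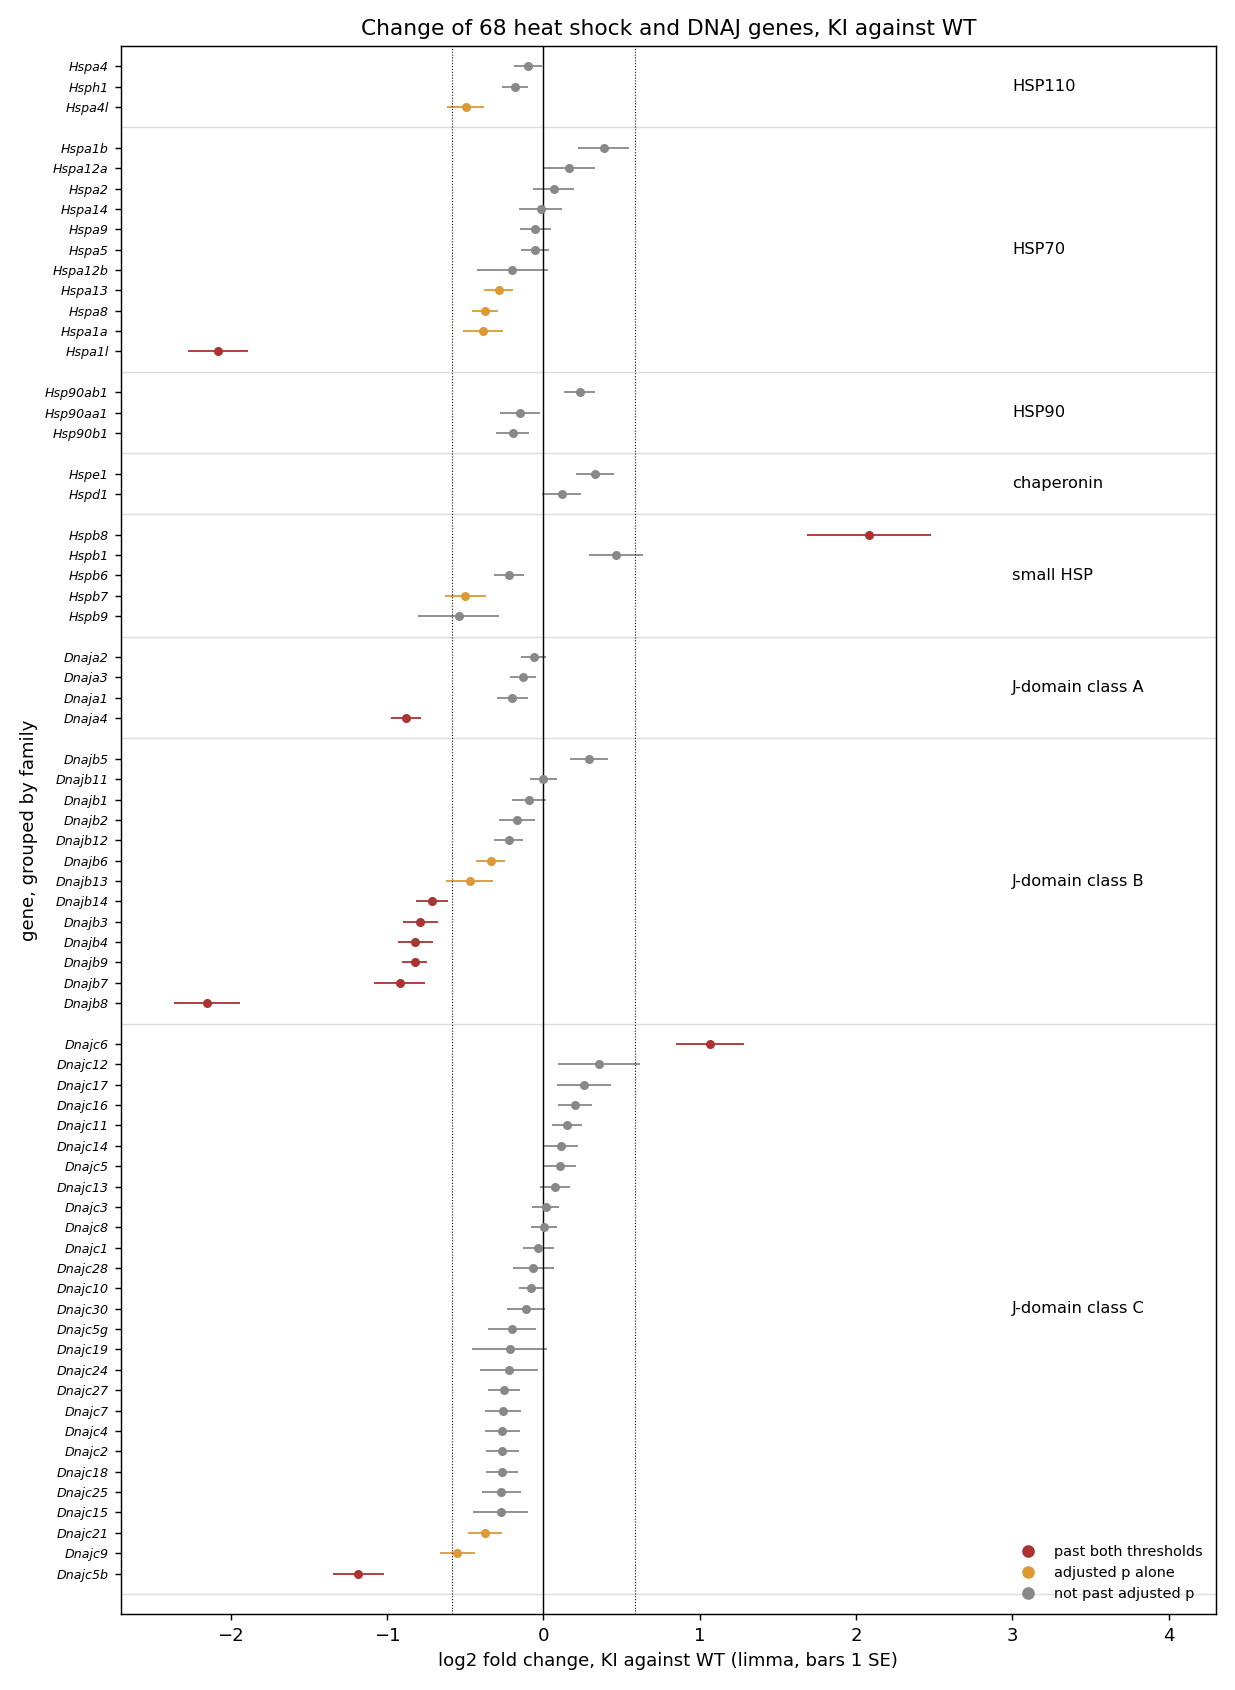
The log2 fold change of KI against WT is plotted on the x axis for each of the 68 genes, grouped by family on the y axis, with bars of 1 SE from limma and dotted lines at a fold change of 1.5. Dnajb8 at −2.15 and Hspa1l at −2.08 lie farthest to the left and Hspb8 at 2.08 farthest to the right, and 6 of 13 class B DNAJ genes lie past both thresholds on the left.

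Cell type markers were read beside these values, since in bulk RNA fewer cells of a type and less RNA per cell cannot be told apart. All 13 elongating spermatid markers were called lower in KI (median log2 fold change −2.27), and 12 of them with library totals. The study describes mRNA of Tssk6, Tnp2 and Prm2, which are in this list, as stable in round spermatids before translation. The list therefore does not read elongating cells alone. Summed over the 13 genes, they were at 385472, 431388, 468151, 279225 and 263312 normalized counts in WT libraries 1 to 5 and at 73987, 83757, 82637, 62496 and 41781 in KI libraries 1 to 5, with Prm2 the most abundant. WT libraries 4 and 5 were thus the lowest of WT, and KI library 5 the lowest of KI. Of 10 round spermatid markers 1 was called lower, Lyzl1, and 4 had an adjusted p under 0.05 (median −0.36, summed 26439 ± 1014 in WT and 21005 ± 3065 in KI, SD, n = 5 each, Tssk1 the most abundant). The difference of the change between the library sets had an unadjusted p under 0.05 in 7 of the 10 round spermatid markers and an adjusted p under 0.05 in 0 (limma interaction). By adjusted p 6 of the 10 fell in libraries 1 to 3 and 7 in libraries 4 and 5. Among the 10 markers Lyzl1 had log2 fold changes of −0.84 and −1.35 in the respective sets, Tssk1 of −0.32 and −0.56, Acr of −0.13 and −0.16, and Catsper4 of 0.19 and −0.72. Of 14 spermatocyte markers 1 was called lower, Syce2 (median −0.10, summed 31577 ± 4109 in WT and 27655 ± 2094 in KI, SD, n = 5 each, Piwil1 the most abundant). Under the fold threshold Spo11 was lower (log2 fold change −0.41, limma adjusted p = 0.0232) and Adad2 higher (0.38, 0.0418). Of 8 spermatogonial markers (median 0.15, summed 1914 ± 255 in WT and 1992 ± 153 in KI, Uchl1 the most abundant) 0 were called by limma, with 1, Gfra1, lower at an adjusted p under 0.05. At an unadjusted p under 0.05 there were 2, Gfra1 lower and Zbtb16 higher. Of 5 general germ cell markers (median −0.06, summed 35328 ± 2190 and 33035 ± 1728, Mael the most abundant) 0 were called by limma and 1 had an unadjusted p under 0.05.

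Somatic transcripts were present as well. Leydig cell markers were called higher in KI for 4 of 7 genes (summed 13875 ± 3583 in WT and 23311 ± 4576 in KI, SD, n = 5 each, Insl3 the most abundant) and macrophage markers for 6 of 10 (1013 ± 90.4 and 1439 ± 196, Mrc1 the most abundant). Among 8 endothelial markers 2 were called higher (400 ± 64.3 and 660 ± 180, Vwf the most abundant). Sertoli cell markers were called in 0 of 10 genes by limma, with 1, Gata4, higher in KI at an adjusted p under 0.05 and the same count of 1 at an unadjusted p under 0.05 (10132 ± 1732 and 10807 ± 2683, Clu the most abundant). By adjusted p 4 Sertoli markers were higher in libraries 1 to 3 and 2 lower in libraries 4 and 5, and the limma interaction had an unadjusted p under 0.05 in 6 of the 10 and an adjusted p under 0.05 in 0. Clu was at 0.35 in libraries 1 to 3 and at −0.55 in libraries 4 and 5 on the log2 scale. Of 7 peritubular and smooth muscle markers Acta2 and Des were called higher and Actg2, the most abundant, lower (4139 ± 696 and 2237 ± 107). Of 5 erythroid markers Hba-a1 was called higher and Alas2 lower (528 ± 83.8 and 664 ± 182, Hba-a2 the most abundant). With library totals 7 Leydig, 7 macrophage, 4 endothelial and 2 Sertoli markers were called higher. Among the Leydig markers Hsd3b1 (limma adjusted p = 0.0125), Star (0.00392) and Lhcgr (0.0153) newly passed adjusted p with the library number as a block. The part of the spermatid and somatic markers in the chaperone values was not tested.

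Hspa1l, the HSP70 gene of spermatids, had normalized counts of 14031, 16315, 17545, 7751 and 9923 in WT libraries 1 to 5 and of 3037, 3333, 3167, 3011 and 2338 in KI libraries 1 to 5. No KI library reached the lowest WT library. Within WT libraries 4 and 5 were the lower ones, as they were for the summed elongating spermatid markers. Within KI, libraries 1 and 4 were close for Hspa1l (3037 and 3011) but less so for the summed markers (73987 and 62496). The part of these markers in the Hspa1l values was not tested. The mean went from 13113 ± 4173 to 2977 ± 379 (SD, n = 5 each), which is −2.08 on the log2 scale (SE 0.19, limma adjusted p = 1.88e-06). Libraries 1 to 3 alone gave −2.32 and libraries 4 and 5 alone −1.72, a difference between the sets that did not pass adjustment over all genes (limma interaction, adjusted p = 0.130). An antisense gene that the table does not list, Gm10501, shares 1778 of the 2472 exon bases of Hspa1l, and since strand is not stated to have been used in counting, reads of both cannot be told apart in the counts and shares of Hspa1l.

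Hspa2, the HSP70 protein that spermatocytes need for meiosis, was at 31384, 31976, 29644, 38006 and 36851 normalized counts in WT libraries 1 to 5 and at 28549, 34085, 31984, 42545 and 39675 in KI libraries 1 to 5. The genotypes overlapped, and libraries 4 and 5 were the higher ones in both. Its log2 fold change was 0.07 (SE 0.13, limma adjusted p = 0.765), but 0.30 with library totals (adjusted p = 0.0430, all genes shifted by 0.23). Hspa8, the constitutive cytosolic HSP70, was at 2769, 2377, 2430, 2923 and 2739 in WT libraries and at 2139, 1941, 2089, 1955 and 2080 in KI libraries. Each KI library was below each WT library. At −0.37 on the log2 scale (SE 0.09, limma adjusted p = 0.00504) its change lay under the 1.5-fold threshold, and with library totals it was −0.14 (adjusted p = 0.232). The chaperones of other compartments gave Hspa5 (BiP, of the endoplasmic reticulum) at 13564 ± 937 in WT and 13051 ± 663 in KI and Hspa9 (mitochondrial mortalin) at 5082 ± 275 and 4932 ± 617 (SD, n = 5 each). Both overlapped between genotypes, with limma adjusted p-values of 0.721 and 0.764.

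Levels were compared between HSP70 genes per kilobase of annotated exon. Hspa2 made up 51.1% ± 5.59 (SD, n = 5) of the summed level of the 11 HSP70 genes in WT and 63.5% ± 3.98 in KI. The share of Hspa1l was 23.2, 26.1, 28.5, 12.7 and 16.0% in WT libraries 1 to 5 and 6.63, 6.55, 6.52, 5.15 and 4.21% in KI libraries 1 to 5, a difference of means of −15.5 percentage points, −19.4 in libraries 1 to 3 and −9.69 in libraries 4 and 5. In each WT library Hspa1l thus held a larger share than in any KI library. In WT the order by mean share over 5 libraries was Hspa2, Hspa1l, Hspa5, Hspa9 and Hspa8. Hspa1l stood above Hspa5 in WT libraries 1, 2, 3 and 5 but below it in WT library 4 (12.7 and 15.9%), and over WT libraries 4 and 5 together it was also below (means 14.4 and 15.6%). In each KI library the order was Hspa2, Hspa5, Hspa9, Hspa1l and Hspa8, with Hspa5 at 14.5% ± 1.08 in WT and 16.8% ± 2.34 in KI and Hspa9 at 6.70% ± 0.340 and 7.72% ± 0.652. Hspa8 took 4.45% ± 0.431 in WT and 4.11% ± 0.533 in KI. By library set the direction of Hspa5 and Hspa8 differed: Hspa5 took 13.9% in WT and 18.4% in KI in libraries 1 to 3 but 15.6% and 14.3% in libraries 4 and 5, and Hspa8 4.25% and 4.40%, then 4.76% and 3.66%. These shares do not depend on the scaling between libraries and were not tested.

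**Figure D2:**
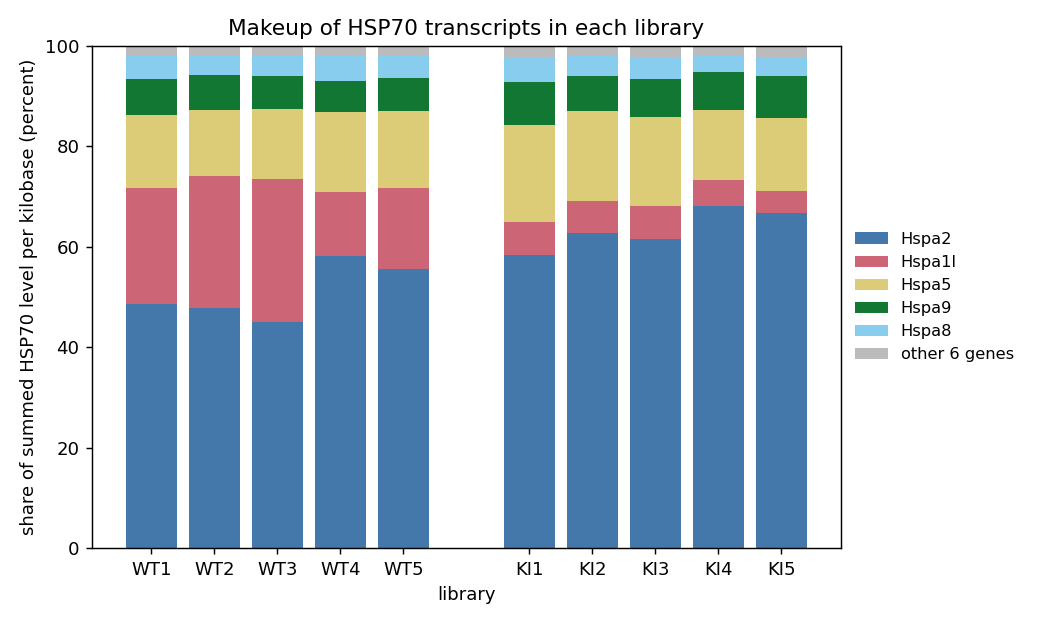
Stacked bars give, for each of the 10 libraries on the x axis, shares of the summed HSP70 level per kilobase of exon, in percent on the y axis. Hspa2, Hspa1l, Hspa5, Hspa9 and Hspa8 have their own segments, and the remaining HSP70 genes are drawn together. Hspa1l lies between 12.7 and 28.5% in the WT libraries and between 4.21 and 6.63% in the KI libraries, and Hspa2 is the widest segment in all 10.

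Hspa1a and Hspa1b, the stress-inducible HSP70 genes, were low. Their coding sequences were 99.6% identical, with an identical run of 638 bases, and Hspa1a shared a run of 233 bases with Hspa1l, so that reads could be split between them and the values of both are uncertain. Hspa1a was at 113, 117, 129, 123 and 151 normalized counts in WT libraries 1 to 5 and at 86.7, 91.3, 99.9, 113 and 92.0 in KI libraries 1 to 5. The highest KI library lay just under the lowest WT library, and the log2 fold change was −0.39 (SE 0.13, limma adjusted p = 0.0421). The adjusted p was no longer under 0.05 without WT library 2 (0.0522), 3 (0.0796), 4 (0.0612) or 5 (0.10) or without KI library 1 (0.0922), 2 (0.0913), 3 (0.0668) or 5 (0.0738). In those fits the log2 fold change of Hspa1a was −0.41 to −0.32. Hspa1b was at 59.6, 49.7, 70.1, 79.2 and 75.3 in WT and at 72.6, 81.7, 104, 85.6 and 91.1 in KI. The genotypes overlapped, and the log2 fold change was 0.39 (SE 0.16, limma adjusted p = 0.103), or 0.61 with library totals (adjusted p = 0.0137) and 0.48 with upper quartile scaling (0.0471). Hspa13, an HSP70 relative of microsomes, went from 794 ± 81.4 to 651 ± 40.7 (SD, n = 5 each, log2 fold change −0.28, limma adjusted p = 0.0382), with no overlap. Its adjusted p was 0.0518, 0.0554, 0.0865 and 0.0643 without WT library 1, 2, 4 or 5, and 0.0760, 0.10 and 0.0559 without KI library 2, 3 or 4. In those fits the log2 fold change of Hspa13 was −0.30 to −0.22.

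Hspa1l (chr17:34972703-34979228, plus strand) and Hspa1a (chr17:34969359-34972156, minus strand) stand head to head on mouse chromosome 17, in mm10, with 547 bases between their starts. The 250 bases before each RefSeq start are given because these neighbours had fitted log2 fold changes of −2.08 and −0.39. The −0.39 of Hspa1a is uncertain, since its reads could be split with Hspa1b, which was at 0.39. Exons of Gm20481 on the other strand also share 564 of the 2967 exon bases of Hspa1a. The bases of Dnajb8 are given because it had the lowest log2 fold change of the members. Those of Hspa5 are given because they hold a known stress element. Capitals mark a match to GAANNTTC (a pair of heat shock element units) or to CCAAT and CCACG with 9 bases between them (the endoplasmic reticulum stress element, ERSE).
Hspa1a upstream (chr17:34972157-34972406, minus strand): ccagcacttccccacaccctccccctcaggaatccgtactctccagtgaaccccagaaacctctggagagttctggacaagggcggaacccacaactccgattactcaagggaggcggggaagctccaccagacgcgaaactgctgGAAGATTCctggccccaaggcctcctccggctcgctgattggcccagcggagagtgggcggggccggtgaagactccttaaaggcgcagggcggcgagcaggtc
Hspa1l upstream (chr17:34972453-34972702, plus strand): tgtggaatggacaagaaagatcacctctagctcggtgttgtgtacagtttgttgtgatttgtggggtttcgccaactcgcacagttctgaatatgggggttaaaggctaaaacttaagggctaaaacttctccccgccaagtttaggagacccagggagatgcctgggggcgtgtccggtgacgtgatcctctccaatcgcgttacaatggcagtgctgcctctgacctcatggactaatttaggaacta
Dnajb8 upstream (chr6:88222018-88222267, plus strand): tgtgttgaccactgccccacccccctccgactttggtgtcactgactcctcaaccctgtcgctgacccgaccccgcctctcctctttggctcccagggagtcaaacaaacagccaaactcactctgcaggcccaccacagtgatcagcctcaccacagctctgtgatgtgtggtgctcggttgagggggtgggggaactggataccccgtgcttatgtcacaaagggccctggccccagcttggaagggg
Hspa5 upstream (chr2:34771840-34772089, plus strand): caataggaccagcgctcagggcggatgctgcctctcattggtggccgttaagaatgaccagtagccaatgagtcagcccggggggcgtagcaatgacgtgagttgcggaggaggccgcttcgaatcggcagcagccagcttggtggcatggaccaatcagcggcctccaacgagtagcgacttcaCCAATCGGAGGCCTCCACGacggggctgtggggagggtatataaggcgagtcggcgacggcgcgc
The 250 bases of Hspa1b differed from those of Hspa1a at 3 positions. In Hspa1a and Hspa1b GAANNTTC began 104 bases before the start, and Hspa1l and Dnajb8 held no match to the motifs searched.

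RefSeq promoters (GRCm38.p6) were matched for 56 members and 12139 genes, and searched on both strands. GAANNTTC stood in the 250 bases of 10 members (17.9%) and 6.35% of all genes, and TTCNNGAA, the same units in the other order, in 6 members (10.7%) and 7.46%. At least 1 of both was found in 13 members (23.2%) and 12.7% of all genes. Of these 13 genes, 2 were called lower in KI by limma, Dnaja4 and Dnajb4 (15.4%), where 8 of the 56 members with a promoter were (14.3%). The 13 are not all separate occurrences. The windows of the neighbours Hspd1 and Hspe1 overlap and hold the same matches, and those of Hspa1a and Hspa1b are nearly identical. The ERSE stood in 3 members, Hspa5, Hsp90b1 and Dnajc3, and in 0.165% of all genes, and none of these 3 had an adjusted p under 0.05. TGACGTCA, the cAMP response element, stood in 1 member, Dnajc27, and 2.93% of all genes. A match says only that these letters are present.

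The HSP110 genes encode nucleotide exchange factors of HSP70. Hspa4l, the member enriched in testis, was at 16869, 17250, 15096, 11602 and 12520 normalized counts in WT libraries 1 to 5 and at 10161, 10025, 9612, 11188 and 10403 in KI libraries 1 to 5. KI and WT did not overlap, but WT libraries 4 and 5 came close to KI. Its log2 fold change was −0.50 (SE 0.12, limma adjusted p = 0.00680), −0.72 in libraries 1 to 3 and −0.16 in libraries 4 and 5 (adjusted p = 0.551 there). The difference between the sets had a limma interaction adjusted p of 0.0914. Hspa4 (5412 ± 436 in WT, 5048 ± 354 in KI) and Hsph1 (643 ± 34.2, 566 ± 24.4, SD, n = 5 each) overlapped between genotypes, with limma adjusted p-values of 0.476 and 0.129.

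Of the 3 HSP90 genes 0 had an adjusted p under 0.05 with limma, edgeR or DESeq2, and 1, Hsp90ab1, had an unadjusted limma p under 0.05. The study, on these samples, names Hsp90 among its significantly down-regulated genes, without saying which HSP90 gene is meant. Of all genes, 13.3% were lower and 9.65% higher by limma adjusted p, and 5322 of 15389 had an unadjusted limma p under 0.05. Hsp90aa1, the inducible cytosolic form that male meiosis needs, was at 30497 ± 3849 in WT and 27533 ± 3810 in KI. Libraries 1 to 3 alone gave a log2 fold change of −0.34 and libraries 4 and 5 alone 0.13. Hsp90ab1, the constitutive form, was at 4900, 4529, 5107, 5535 and 5484 in WT libraries and at 5566, 5586, 5465, 6531 and 6933 in KI libraries. Only KI library 3 lay below the highest WT libraries, and the log2 fold change was 0.23 (SE 0.10, limma adjusted p = 0.106). With the library number as a block in limma the adjusted p was 0.0267, with a term for the library set 0.0216, with upper quartile scaling 0.0222, and with library totals the log2 fold change was 0.46 (limma adjusted p = 0.00171). Hsp90b1, the form of the endoplasmic reticulum, was at 11951 ± 1388 and 10394 ± 814 (SD, n = 5 each, limma adjusted p = 0.197).

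Hspd1 and Hspe1, which form the mitochondrial chaperonin and its lid, are divergently transcribed neighbours on chromosome 1. Hspd1 was at 450 ± 54.5 in WT and 490 ± 73.0 in KI (SD, n = 5 each, limma adjusted p = 0.555). Hspe1 was at 198, 183, 192, 241 and 177 in WT libraries 1 to 5 and at 274, 246, 285, 221 and 221 in KI libraries 1 to 5. KI libraries 1 to 3 lay above all WT libraries and KI libraries 4 and 5 did not. The log2 fold change was 0.33 (SE 0.12, limma adjusted p = 0.0596). Its adjusted p was under 0.05 with DESeq2 (0.0467), library totals (0.00624), upper quartile scaling (0.0201) and spermatocyte markers (0.0167). In limma it was also under 0.05 with the library number as a block (0.0380), with a term for the library set (0.0335), in libraries 1 to 3 alone (0.00423), without WT library 4 (0.0242) and without KI library 4 (0.0471) or 5 (0.0448).

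Among 5 small heat shock genes, Hspb8, a partner of the co-chaperone Bag3 in selective autophagy, was called higher in KI. It had 1, 7, 3, 5 and 8 reads in WT libraries 1 to 5 and 29, 24, 21, 15 and 31 in KI libraries 1 to 5, or 5.06 ± 2.89 and 22.2 ± 5.35 normalized counts (SD, n = 5 each). Every KI library lay above every WT library at this low depth. Hspb8 thus had a log2 fold change of 2.08 (limma SE 0.40, adjusted p = 0.00136) with the pseudocount of 1 and of 1.10 with a pseudocount of 10. Libraries 1 to 3 alone gave 2.42 and libraries 4 and 5 alone 1.57 (limma adjusted p = 0.0931 there).

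Hspb9, a small heat shock gene of testis, had the highest level per kilobase of all members in WT (29245, against 12697 for Hspa2). Its normalized counts were 17928, 17664, 23701, 29632 and 17234 in WT libraries 1 to 5 and 15552, 22786, 20286, 11023 and 7427 in KI libraries 1 to 5. KI libraries 2 and 3 lay within the WT range and KI libraries 1, 4 and 5 below it, library 1 by the least. Over all libraries the log2 fold change was −0.54 (SE 0.26, limma adjusted p = 0.153), −0.02 in libraries 1 to 3 and −1.32 in libraries 4 and 5 (adjusted p = 0.00403 there), and the limma interaction adjusted p for that difference was 0.0747. Of the 10 round spermatid markers 7 had a more negative log2 fold change in libraries 4 and 5 at an unadjusted limma interaction p under 0.05, and 0 at an adjusted p under 0.05. Among the 7, Izumo1 and Catsper4 were above 0 in libraries 1 to 3 (0.16 and 0.19). The part of these markers in the Hspb9 values was not tested. Hspb7, best known from heart muscle, went from 760 ± 133 to 535 ± 67.7 (SD, n = 5 each, log2 fold change −0.50, limma adjusted p = 0.0119) with no overlap, and with library totals its adjusted p was 0.112. Hspb1, the ubiquitous small heat shock protein, was at 155 ± 34.0 and 215 ± 46.6 with overlap (log2 fold change 0.47, limma adjusted p = 0.0647). It passed with DESeq2 (adjusted p = 0.0412), and in limma with library totals (0.0113), upper quartile scaling (0.0306), spermatocyte markers (0.0196), the library number as a block (0.0158) and a term for the library set (0.0224). It also passed in libraries 1 to 3 alone (0.00453), without WT library 3 (0.0247) and without KI library 5 (0.0222).

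Of 13 J-domain genes of class B 6 were called lower by limma (46.2%, where 8.22% of all genes were) and none higher (6.13% of all genes), with a median log2 fold change of −0.47 (−0.24 with library totals, −0.29 with spermatocyte markers). Dnajb8, a testis-enriched suppressor of protein aggregation, was at 7622, 7868, 8526, 5720 and 4811 normalized counts in WT libraries 1 to 5 and at 1711, 2126, 1878, 1348 and 884 in KI libraries 1 to 5. Every KI library lay below every WT library, and in both genotypes libraries 4 and 5 were the lower ones. The log2 fold change was −2.15 (SE 0.21, limma adjusted p = 3.72e-06), −2.07 in libraries 1 to 3 and −2.26 in libraries 4 and 5. Dnajb8 is a single-exon gene on chromosome 6 (chr6:88222268-88223256, plus strand), and an antisense gene that the table does not list, 1700031F10Rik, shares 523 exon bases with it.

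Dnajb3, another J-domain gene of haploid germ cells, was at 12274, 13828, 14874, 13007 and 12095 in WT libraries 1 to 5 and at 6583, 8320, 8101, 8899 and 6603 in KI libraries 1 to 5. The highest KI library was below the lowest WT library by a wide gap, and the log2 fold change was −0.79 (SE 0.11, limma adjusted p = 0.000100), or −0.56 with library totals, which is under the fold threshold. Dnajb7, also of testis, was at 1730, 1907, 1763, 1265 and 1259 in WT and at 860, 997, 924, 883 and 546 in KI. There was no overlap, and the log2 fold change was −0.92 (SE 0.16, limma adjusted p = 0.000752). Dnajb3, Dnajb7 and Dnajb8 belong to 7 members with a single exon, of which these 3 were called lower, as were 6 of 61 members with introns (9.84%) and 8.22% of all genes, and the difference by exon number was not tested.

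Dnajb9 (ERdj4), a J-domain protein of the endoplasmic reticulum in the unfolded protein response, was at 1986, 2053, 1804, 1998 and 1810 in WT libraries 1 to 5 and at 1058, 1145, 1050, 1124 and 1069 in KI libraries 1 to 5. The libraries of each genotype were tightly grouped, with no overlap, and the log2 fold change was −0.82 (SE 0.08, limma adjusted p = 2.78e-06), −0.84 in libraries 1 to 3 and −0.79 in libraries 4 and 5. Other endoplasmic reticulum partners of Hspa5 did not pass the adjusted p: Dnajb11 was at 1467 ± 127 in WT and 1465 ± 77.1 in KI and Dnajc3 at 1601 ± 113 and 1618 ± 136 (SD, n = 5 each, limma adjusted p = 0.996 and 0.932). Dnajb14, a J-domain protein of the endoplasmic reticulum membrane, went from 3474 ± 334 to 2127 ± 261 (SD, n = 5 each), with no overlap, or by −0.71 on the log2 scale (SE 0.10, limma adjusted p = 0.000148), but −0.48 with library totals. Its paralog Dnajb12 was at 530 ± 34.8 and 455 ± 34.6 without overlap (log2 fold change −0.22, limma adjusted p = 0.0970, and 0.0490 with the library number as a block).

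Dnajb4, a cytosolic J-domain protein close to Dnajb1, was at 3789, 4079, 3842, 2837 and 3224 in WT libraries 1 to 5 and at 2163, 1945, 1903, 2261 and 1751 in KI libraries 1 to 5. No library of KI reached WT, and the log2 fold change was −0.82 (SE 0.11, limma adjusted p = 7.69e-05). Dnajb1 itself, the inducible partner of HSP70, was at 8925 ± 870 and 8410 ± 1154 (SD, n = 5 each, limma adjusted p = 0.609). Dnajb6, which holds back amyloid-forming proteins, went from 5642 ± 536 to 4458 ± 319 (SD, n = 5 each, log2 fold change −0.34, limma adjusted p = 0.0148), with −0.49 in libraries 1 to 3 and −0.11 in libraries 4 and 5 (adjusted p = 0.681 there). Dnajb13, a protein of the radial spokes of the sperm tail, was at 3745, 3745, 3413, 2879 and 2761 in WT libraries and at 2681, 2740, 2720, 2403 and 1548 in KI libraries. The gap between the genotypes was small, and the log2 fold change was −0.47 (SE 0.15, limma adjusted p = 0.0358). Its adjusted p was 0.0913, 0.0894 and 0.0691 without WT library 1, 2 or 3, 0.0566 without KI library 4, and 0.222 with library totals. The log2 fold change of Dnajb13 was −0.48 to −0.42 without those libraries and −0.24 with library totals.

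**Figure D3:**
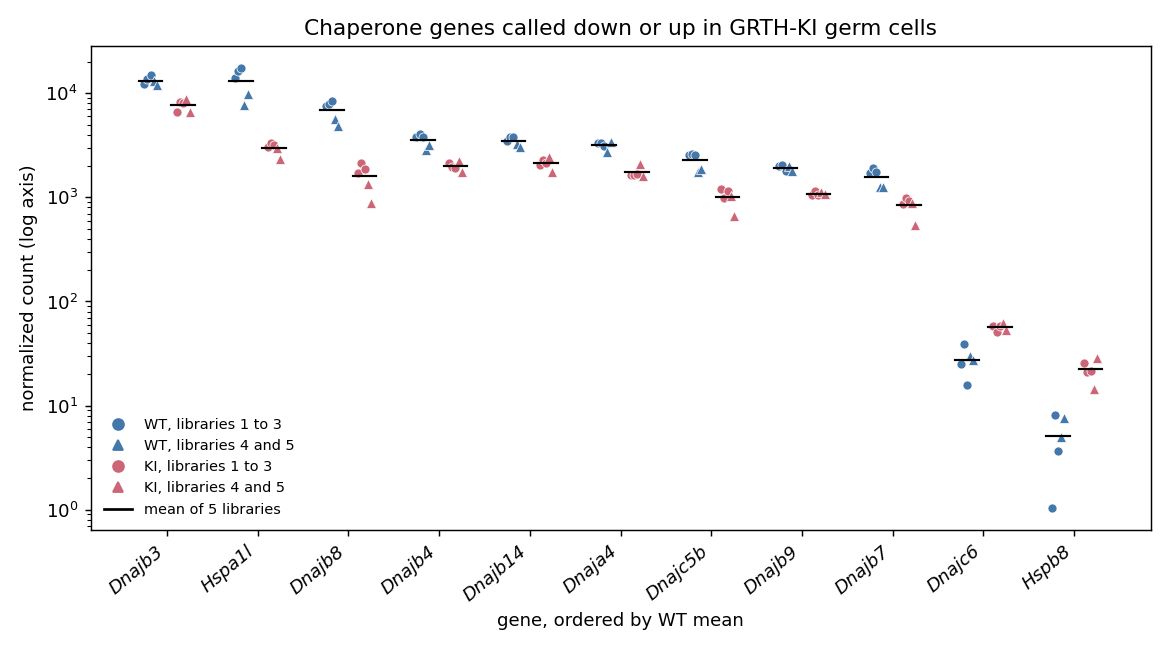
Normalized counts of the 11 members called lower or higher in KI are plotted on a log axis for each of the 10 libraries, WT in blue and KI in red, with circles for libraries 1 to 3, triangles for libraries 4 and 5 and black lines for the means of 5 libraries. In each of the 9 genes called lower all KI libraries lie below all WT libraries, and for Dnajc6 and Hspb8, at means under 60, all lie above.

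Class A J-domain proteins, the closest to bacterial DnaJ, held 1 gene called lower among 4, where 8.22% of all genes were. Dnaja4 was at 3347, 3349, 3125, 2738 and 3399 in WT libraries 1 to 5 and at 1647, 1657, 1673, 2097 and 1621 in KI libraries 1 to 5. The genotypes did not overlap, and the log2 fold change was −0.88 (SE 0.10, limma adjusted p = 1.19e-05). Exons of Wdr61 on the other strand share 1581 bases with it. Dnaja1, the main cytosolic form, was at 2495 ± 162 and 2189 ± 305 (SD, n = 5 each, limma adjusted p = 0.184).

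Class C, whose proteins share little but the J domain, held 27 genes, with 1 called lower and 1 higher (3.70% lower, where 8.22% of all genes were called lower and 6.13% higher). Dnajc5b, a testis relative of the cysteine string protein of synaptic vesicles, was at 2557, 2633, 2565, 1752 and 1859 in WT libraries 1 to 5 and at 1208, 990, 1146, 1027 and 656 in KI libraries 1 to 5. WT and KI did not overlap, and the log2 fold change was −1.18 (SE 0.16, limma adjusted p = 8.79e-05), −1.22 in libraries 1 to 3 and −1.14 in libraries 4 and 5. Of its relatives, Dnajc5g, also of testis, was at 2146 ± 581 and 1818 ± 151 and Dnajc5, the broadly expressed form, at 547 ± 24.8 and 593 ± 94.2 (SD, n = 5 each). Both overlapped between genotypes, with limma adjusted p-values of 0.395 and 0.535.

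Dnajc6 (auxilin), which uncoats clathrin vesicles in neurons, was at 25.1, 39.3, 15.7, 30.1 and 27.3 normalized counts in WT libraries 1 to 5 and at 58.4, 51.3, 57.7, 61.5 and 53.4 in KI libraries 1 to 5. Each KI library lay above each WT library, on 13 to 34 reads in WT and 56 to 66 in KI. On the log2 scale the change was 1.06 (SE 0.22, limma adjusted p = 0.00226), and in libraries 4 and 5 alone 0.98 (adjusted p = 0.0694). Dnajc9, a histone chaperone, went from 741 ± 81.3 to 507 ± 65.1 (SD, n = 5 each) with no overlap, or by −0.55 on the log2 scale (SE 0.11, limma adjusted p = 0.00217), and without WT library 4 or KI library 2 it passed the fold threshold as well. Dnajc21, a ribosome assembly factor named after its values were seen, was the only member with an adjusted p under 0.05 and overlapping genotypes (1531 ± 183 and 1183 ± 143, SD, n = 5 each, log2 fold change −0.37, limma adjusted p = 0.0211). Libraries 1 to 3 alone gave −0.58 (adjusted p = 6.02e-05) and libraries 4 and 5 alone −0.05 (0.867), and the limma interaction adjusted p for that difference was 0.106. Dnajc21 lost its adjusted p under 0.05 without WT library 1 (0.0598) or 2 (0.0612) and without KI library 2 (0.0603) or 3 (0.0595), each at a log2 fold change of −0.33.

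The partners and regulators of these chaperones were read from gene lists. A list of 4 heat shock factor genes and 3 genes of proteins that bind them held 1 gene called lower (14.3%, against 8.22% of all genes) and none called higher by limma. This was Hsfy2, a testis relative of the heat shock factors, which went from 1334 ± 194 to 824 ± 81.3 (SD, n = 5 each, log2 fold change −0.69, limma adjusted p = 0.000341, no overlap), and at −0.46 with library totals it lay under the fold threshold. Hsf2, a heat shock factor active in spermatogenesis, fell by less than the fold threshold (882 ± 61.5 to 685 ± 56.8, log2 fold change −0.36, limma adjusted p = 0.00787), and passed neither with library totals (−0.14, adjusted p = 0.200) nor in libraries 4 and 5 alone (0.194). Hsf1, the main stress regulator, was at 553 ± 65.1 and 596 ± 34.8 (limma adjusted p = 0.463). Of 16 HSP70 co-chaperone genes 1 was called lower by limma (6.25%, against 8.22% of all genes) and none higher. Bag1, a nucleotide exchange factor of HSP70, was at 6253, 6810, 7442, 5874 and 5726 in WT libraries 1 to 5 and at 2438, 2752, 2649, 3076 and 2431 in KI libraries 1 to 5. No KI library came near WT, and the log2 fold change was −1.26 (SE 0.10, limma adjusted p = 4.06e-07). Bag1 stands in a list the study drew from these samples. Bag5 (log2 fold change −0.50) and Cdc37l1 (−0.35) fell by less than the fold threshold, and Cdc37l1 did not pass with library totals (limma adjusted p = 0.259) nor either gene in libraries 4 and 5 alone (0.136 and 0.0906).

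Of 28 genes listed as HSP90 co-chaperones 2 were called lower by limma (7.14%, against 8.22% of all genes) and none higher. Trap1, counted in this list, is itself a mitochondrial HSP90 (limma adjusted p = 0.311). Nudcd2, of the NudC family, went from 368 ± 50.5 to 216 ± 9.97 (log2 fold change −0.76, limma adjusted p = 0.000131), and Cacybp, a partner of Sugt1 and of ubiquitin ligases, from 994 ± 138 to 618 ± 68.1 (SD, n = 5 each, log2 fold change −0.68, limma adjusted p = 0.000436). Neither overlapped between genotypes, and with library totals both lay under the fold threshold, at −0.53 and −0.45. By adjusted p alone 5 of the 28 fell, where 13.3% of all genes did, and 1, Fkbp5, rose (log2 fold change 0.37, limma adjusted p = 0.0271). In the cytosolic chaperonin TRiC and prefoldin 0 of 16 genes were called by limma, where 8.22% of all genes were called lower and 6.13% higher. An unadjusted p under 0.05 was found in 5, and in 5322 of all 15389 genes. Of the 16, 1, Cct6b, a testis form of a TRiC subunit, had an adjusted p under 0.05 (5250 ± 420 to 4112 ± 356, SD, n = 5 each, log2 fold change −0.35, limma adjusted p = 0.0114). With the library number as a block Cct2 (limma adjusted p = 0.0469), Cct6a (0.0342) and Pfdn5 (0.00129) passed as well, all lower in KI. With DESeq2 Tcp1, the most abundant (adjusted p = 0.0224), and Pfdn5 (0.0429) also passed, where 3932 of all genes did. In libraries 1 to 3 alone 6 of the 16 were lower and 1 higher by limma adjusted p, against 17.9% and 13.3% of all genes. Tcp1 was at −0.42 there (limma adjusted p = 0.00118) and at −0.05 in libraries 4 and 5 (0.883). Cct6b did not pass with library totals (−0.12, limma adjusted p = 0.202) or in libraries 4 and 5 alone (0.328). Of 4 other J-domain genes 0 had an adjusted p under 0.05 with limma, edgeR or DESeq2, and 0 had an unadjusted p under 0.05. By limma adjusted p 13.3% of all genes were lower and 9.65% higher. Of 2 other small heat shock genes tested, Odf1, a protein of the outer dense fibres of the sperm tail that is also among the elongating spermatid markers, fell from 25514 ± 3968 to 4352 ± 690 (SD, n = 5 each, log2 fold change −2.55, limma adjusted p = 1.39e-08), and Cryab was at 17.7 ± 7.13 and 14.0 ± 2.30 (limma adjusted p = 0.593).

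Within the library sets, all 9 genes called lower were also called lower in libraries 1 to 3 alone and in libraries 4 and 5 alone. Both genes called higher were called higher in libraries 1 to 3 and neither in libraries 4 and 5. Libraries 1 to 3 called 10 members lower and 3 higher, where 8.69% and 7.15% of all genes were. Libraries 4 and 5 called 10 lower and 1 higher, where 7.06% and 3.07% of all genes were. Hspa4l was lower and Hspb1 higher past both thresholds in libraries 1 to 3 only, and Hspb9 lower and Hspa12a higher in libraries 4 and 5 only. Hspa1a and Hspa13 passed adjusted p in neither set alone. By adjusted p alone 27 members fell and 5 rose in libraries 1 to 3, against 17.9% and 13.3% of all genes, and 12 fell and 1 rose in libraries 4 and 5, against 7.62% and 3.42%. Hspa4, Hspa9, Hsp90aa1, Dnaja1 and Dnajc5g were among those lower in libraries 1 to 3, with log2 fold changes of −0.24, −0.21, −0.34, −0.31 and −0.43 and limma adjusted p-values of 0.0215, 0.0420, 0.0230, 0.00835 and 0.00142. In libraries 4 and 5 the same genes were at 0.11, 0.19, 0.13, −0.02 and 0.14. The difference of the change between the sets passed limma's adjusted p in 0 members and in 0.247% of all genes. At an unadjusted p under 0.05 it did so in 16 members, against 16.1% of all genes, and no other tool was run on this difference.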

How the data were processed

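Each deposited value is a signal per gene and library that the authors made by trimming reads, aligning them with STAR to mm10, counting them on RefSeq genes in Partek Flow with its E/M model and dividing by the DESeq2 size factor of the library. Whole reads were recovered from the step between low values, within 0.1 read for 100% of values under 5000 reads. limma 3.58.1 (R 4.3.3) was fitted with trend to log2 of the value plus 1, on 15389 genes that passed edgeR's filterByExpr, with Benjamini-Hochberg adjustment over these genes. A call needed an adjusted p under 0.05 and a 1.5-fold change. Over all genes limma called 2209, edgeR 4.0.16 with TMM 2243 and DESeq2 1.42.0 2309.

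Members named were those past both thresholds, those with an adjusted p under 0.05 and no overlap between genotypes, and 27 known for testis or as main isoforms, 36 in all. Dnajb11, Dnajb12, Dnajc3, Dnajc21 and the uncalled genes named from the lists were chosen after their values were seen. Members and lists were chosen with earlier results of these data known. Gene ends are the Stop column minus 1. The values printed come from the fit without pairing. Centred values of the WT and KI library sharing a number gave Pearson r 0.306, 0.105, 0.280, 0.216 and 0.462 for numbers 1 to 5, each over 0.1, so that the number was also used as a block. WT and KI libraries of other numbers gave a mean r of 0.134 within a library set and −0.201 between sets. Other settings were pseudocounts, filters, tools, scalings, a library number block, a library set term, each library left out and, chosen after seeing the data, an interaction of genotype with library set. Levels per kilobase used GENCODE vM21 exons.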

Additional observations from a re-analysis of the deposited data

Results flagged for a closer look

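In 74 groups of 5 libraries, 1 library was looked for that stood far from the other 4, and chance alone gives about 1 such group in 20. There were 4. Dnaja4 was at 2097 normalized counts in KI library 4, above the other KI libraries at 1621 to 1673. Dnajb13 was at 1548 in KI library 5, below the other KI libraries at 2403 to 2740. Hspb7 was at 418 in KI library 5, below the other KI libraries at 550 to 594. Dnajc5 was at 503 in WT library 1, below the other WT libraries at 553 to 565.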

How the results depend on the processing

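Of 898 values of named members under 25 alternatives, 796 kept their direction and their side of the adjusted p threshold, 45 no longer passed adjusted p, 33 passed it newly and 24 changed sign, none of them past adjusted p before or after. The fold threshold did not enter this tally, so that Dnajb3 and Dnajb14 with library totals are among the 796. With library totals those that changed sign were Hspa4 (0.13), Hsph1 (0.0456), Hspa5 (0.18), Hspa9 (0.18), Hsp90aa1 (0.0800), Hsp90b1 (0.0325), Dnaja1 (0.0322), Dnajb1 (0.14) and Dnajc5g (0.0294). With spermatocyte markers they were Hspa4 (0.0857), Hsph1 (0.00126), Hspa5 (0.13), Hspa9 (0.13), Hsp90aa1 (0.0356) and Dnajb1 (0.0943), and with upper quartile scaling Hspa5 (0.0394), Hspa9 (0.0434) and Dnajb1 (0.00293). In libraries 4 and 5 they were Hspa4 (0.11), Hspa9 (0.19), Hsp90aa1 (0.13) and Dnajc5g (0.14), in libraries 1 to 3 Hspa5 (0.0634), and without KI library 4 Hspa2 at −0.00350, against up to 0.14 when another library was left out. The 9 members called lower were 18 by adjusted p alone and 3 at a fold threshold of 2, and the 2 called higher were 0 under a filter on means below 50, which leaves Hspb8 and Dnajc6 out, 4 with library totals and 1 in libraries 4 and 5. The 18 with an adjusted p under 0.05 and lower in KI were 11 with library totals and 10 with spermatocyte marker scaling. The 2 higher in KI were 0 with the stricter filter, 4 with DESeq2, 15 with library totals, 7 with upper quartile scaling, 4 with spermatocyte marker scaling, 6 with a term for the library set, 5 in libraries 1 to 3, 1 in libraries 4 and 5, and 2 to 4 when each library was left out, 4 without WT library 4 or KI library 5. The scalings moved all genes as well. Of all genes, 944 were called higher past both thresholds with the authors' scaling. They were 2144 with library totals, 1296 with upper quartile scaling and 1669 with spermatocyte markers. The 1265 called lower were 789, 1025 and 845. The member counts under these scalings are therefore no result about the members alone. The median log2 fold change of −0.19 was 0.0391 with library totals, −0.10 with upper quartile scaling, −0.00533 with spermatocyte markers, −0.0797 in libraries 4 and 5, and −0.20 to −0.15 when each library was left out. The cause was not tested.

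With the library number as a block, limma called the same 9 and 2 members, 22 were lower and 6 higher by adjusted p, and Hsp90ab1 (0.0267), Hspe1 (0.0380), Hspb1 (0.0158), Dnajb5 (0.0177), Dnajb12 (0.0490), Dnajc4 (0.0217), Dnajc18 (0.0123) and Dnajc27 (0.0231) newly passed. The block changed no other member's adjusted p across the threshold. Over all genes the calls past both thresholds rose under the block too, from 1265 to 1343 lower and from 944 to 1067 higher.

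Depth limits the genes of few reads. A gene at 3 reads stands at 2.61 to 3.62 normalized counts, which WT library 1 did not reach for Hspb8. Hspa1a and Hspa1b, of nearly equal sequence, cannot be told apart in part of their reads, and genes that overlap on the other strand share theirs.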
